A study of Mus musculus with 6 samples.

Results

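Reserpine added before tumour vesicles was compared with tumour vesicles alone, gene by gene, in cultured mouse lung endothelial cells. The comparison rests on 4 of the 6 libraries of the series, chosen by their labels: 2 libraries of cells given tumour-derived extracellular vesicles (TEV) and 2 of cells given reserpine and then TEV. All cells, those of the vehicle libraries included, came from the lungs of Ch25h-null C57BL6 mice that were female and 3 weeks old, so no cells with a working Ch25h gene are among these groups. The TEV came from MC38 cells, a mouse colorectal carcinoma line, and were added at 20 µg per ml over 12 h. In the reserpine group, reserpine was given at 10 µM for 8 h before the vesicles. The submitters' design text could also mean that every group received reserpine first, whereas the titles and treatment labels name it for this group alone, and the groups here follow those labels. The other 2 libraries, of vehicle-treated cells, entered the statistical fit and show the level without vesicles. These groups hold no cells given reserpine without vesicles, so what reserpine does by itself and what it does to the response to vesicles cannot be told apart. The labels do not say whether the 2 libraries of a group came from separate mice or cultures, so p-values measure only the spread between these libraries, which may be technical.

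Reserpine is an indole alkaloid that blocks the vesicular monoamine transporters, the pumps that load dopamine, noradrenaline and serotonin into secretory vesicles, and it was one of the early drugs against high blood pressure. Extracellular vesicles are small membrane-bound particles that tumour cells release and that other cells take up by endocytosis. Endothelial cells that line blood vessels respond to their surroundings through the VEGF and Notch pathways, which divide a sprouting vessel into leading tip cells and following stalk cells. Ch25h encodes cholesterol 25-hydroxylase, an interferon-inducible enzyme whose product, 25-hydroxycholesterol, hinders fusion and uptake at membranes.

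With reserpine, all 4 listed Notch ligands, all 4 Notch receptors and the VEGF receptor gene Kdr were called higher than with TEV alone. So were all 5 listed genes of caveolae and 20 of 34 mitotic genes. Tip cell genes were called higher for 12 of 21 and lower for 3, and basement membrane and matrix genes higher for 16 of 34 and lower for 4. Of heat shock genes 18 of 30 were called lower and 2 higher, of glycolytic genes 14 of 24 lower, and of osmotic stress genes 9 of 12 lower. The lists were chosen with earlier results of these data known, so their shares are a description and not a test. Of 15035 genes tested, 2354 were called higher and 2403 lower at an adjusted p under 0.05 (edgeR's quasi-likelihood test with Benjamini-Hochberg adjustment), which is 15.7% and 16% of the genes tested. The change was at least 2-fold for 844 higher genes (5.61%) and 773 lower genes (5.14%), and the fitted log2 change lay beyond 4 for 33 higher and 92 lower genes. These counts include genes with at most 3 counts in a group, such as Tal2 and Hspa2, for which the size of the fitted change is uncertain. The median log2 change of all genes tested was 0.00, and the quartiles were -0.37 and 0.39. The share called grew with abundance, from 10.5% of genes with a mean under 1 CPM (counts relative to the library's total after TMM scaling for library composition) over the 4 libraries to 46.6% of those with at least 1000 CPM. Of 2284 genes with a mean from 100 to 1000 CPM, 397 were called higher and 627 lower, so lists of abundant genes have a larger background share. The plot of change against level shows that the largest decreases reached farther from 0 than the largest increases.

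**Figure D1:**
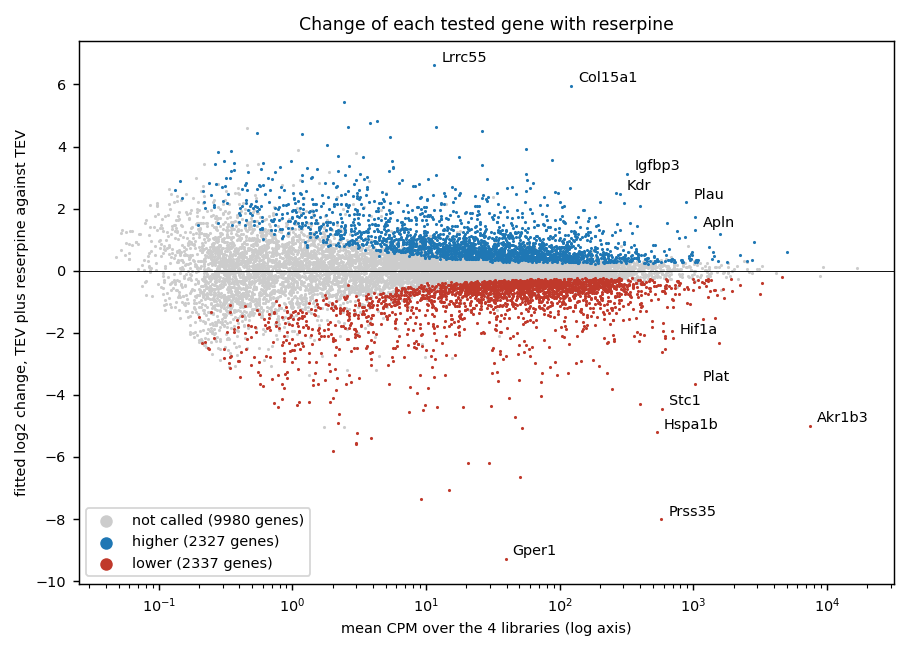
Each point is 1 gene, with its mean CPM over the 4 libraries of TEV and TEV plus reserpine on a log axis (x) and its fitted log2 change with reserpine (y). Genes with at most 3 counts in either group (391) are left out, and the calls drawn are 2327 higher and 2337 lower. Among labelled genes Lrrc55 and Col15a1 lie at the top and Gper1 and Prss35 at the bottom.

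The libraries held between 22270657 and 81225627 estimated counts, and 3 counts of these totals amounted to between 0.0369 and 0.135 CPM. Replicate numbers follow the titles. TEV replicates 1 and 2 are the deposited columns TEV_2 and TEV_3, reserpine replicates 1 and 2 are TEV_reserpine_2 and TEV_reserpine_3, and vehicle keeps its column numbers. The first principal component of log2 CPM held 61.7% of the variance. On it the vehicle libraries lay at -103.5 and -101.9, the TEV libraries at 68.0 and 60.8 and those with reserpine at 40.5 and 36.1. On the second principal component, which held 22.9% of the variance, the TEV libraries lay at 63.5 and 33.4 and those with reserpine at -62.1 and -53.4. TEV replicate 1 lay farther from the reserpine libraries than TEV replicate 2 on this axis, as it did for 679 of the 844 genes at least 2-fold higher and for 679 of the 773 at least 2-fold lower. Without it, 1049 genes were called higher and 1075 lower. Without replicate 1 of TEV plus reserpine (from here on reserpine replicate 1) the calls were 1297 and 1284, and without its replicate 2 they were 1266 and 1294. Of all calls, 36.3% of the higher and 36.5% of the lower held in each of 16 alternative settings. A gene named below as risen or fallen held its call in each of those settings that tested it, unless its exceptions are given in the same paragraph. Ch25h itself had 0.333 and 0.522 CPM with TEV and 1.07 and 0.919 CPM with TEV plus reserpine and was not called (log2 change 1.18, SE 0.43, adjusted p = 0.0797). The labels do not say which exons the null allele lacks, and these reads do not check the genotype.

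The 20 largest increases among called genes averaging 5 CPM or more over the 4 libraries ran from a log2 change of 2.92 to 6.61. That limit can be met through the reserpine libraries alone, as for Lrrc55, Efcc1, Cyp4b1, Pck2, Dll1 and others of these genes. In all 20 the groups did not overlap, but they were chosen for large differences between these libraries, so this adds no support. Over all genes tested, the groups did not overlap for 35% with higher and 35.8% with lower values under reserpine. Lrrc55, which encodes an auxiliary subunit of large-conductance potassium channels, had 0.278 and 0.204 CPM with TEV and 21.9 and 23.7 CPM with TEV plus reserpine (log2 change 6.61, SE 0.20, adjusted p = 3.25e-05). Col15a1, a collagen of the outer face of basement membranes, had 3.00 and 4.52 CPM with TEV and 249 and 231 CPM with TEV plus reserpine (log2 change 5.95, SE 0.19, adjusted p = 3.71e-05), and 186 and 209 CPM with vehicle. The TEV libraries were the low ones for both genes, and both reserpine libraries lay above the vehicle libraries, which had 13.3 and 13.6 CPM of Lrrc55. Against vehicle, Lrrc55 was called higher with TEV plus reserpine (log2 change 0.77, edgeR adjusted p = 0.00613), and Col15a1 was not called (0.28, adjusted p = 0.184). Btnl9, a butyrophilin-like surface protein, rose by 4.51 on the log2 scale, Kcne3, a potassium channel subunit, by 3.91, and Mycn, a transcription factor of the MYC family, by 3.66. Gbp9, a guanylate-binding protein, rose by 3.56, Cyp4b1, a cytochrome P450, by 3.54, and Sema7a, a membrane-anchored semaphorin, by 3.39. Pck2, the mitochondrial form of PEP carboxykinase, rose by 3.36, Mmp15, a membrane-type metalloproteinase, by 3.11, and Inhbb, a subunit of activin B, by 3.09. The rest of the 20 were Efcc1 (4.29), the gamma-secretase activating protein gene Gsap (3.29), 8430408G22Rik (3.20), Igfbp3 (3.12), the globotriaosylceramide synthase gene A4galt (2.95), the pentraxin Nptx1 (2.94), Fam84a (2.93), the Notch ligand Dll1 (2.92) and the metalloreductase gene Steap4 (4.63). The call of Steap4 did not hold without TEV replicate 1 (adjusted p = 0.0538). Against vehicle, 7 of the 20 were called higher with TEV plus reserpine, 3 lower and 10 neither. Over all genes tested in that comparison, 19.1% were called higher and 19.9% lower.

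The 20 largest decreases ran from -4.29 for Nupr1, a stress-induced chromatin protein, to -9.28 for Gper1, an oestrogen-responsive receptor coupled to G proteins. The limit of 5 CPM on the mean can be met through the TEV libraries alone, as for Gper1, Tal2, Prss35, Slc1a3, Foxq1, Abcd2, Lgr6 and others of these genes. Prss35, a member of the serine protease family, had 1279 and 1005 CPM with TEV and 4.20 and 4.59 CPM with TEV plus reserpine (log2 change -8.01, SE 0.17, adjusted p = 1.63e-05), and 5.11 and 4.67 CPM with vehicle. Akr1b3, the aldose reductase gene, which makes sorbitol from glucose, had 16449.5 and 12553 CPM with TEV and 478 and 430.0 CPM with TEV plus reserpine (log2 change -5.00, SE 0.15, adjusted p = 3.25e-05), and 277 and 291 CPM with vehicle. For Prss35 the reserpine libraries lay just below the vehicle libraries, and for Akr1b3 above them. Against vehicle, Prss35 was not called with TEV plus reserpine (log2 change -0.15, edgeR adjusted p = 0.506), and Akr1b3 was called higher (0.68, adjusted p = 0.00705). Stc1, the hormone stanniocalcin 1, had 1392 and 822 CPM with TEV and 51.2 and 49.9 CPM with TEV plus reserpine (log2 change -4.45, SE 0.26, adjusted p = 0.000300). Slc1a3, a glutamate transporter, fell by 6.66 on the log2 scale, Foxq1, a forkhead factor, by 6.18, and Abcd2, a peroxisomal fatty acid transporter, by 6.18. Gpr149, an orphan receptor, fell by 5.06, Lgr6, a receptor for R-spondins, by 4.48, and Moxd1, a monooxygenase related to dopamine beta-hydroxylase, by 4.35. Gm20481 (-4.38), 2310030G06Rik (-4.32) and the heat shock genes Hspa1b and Hspa1a, described below, also fell. Tal2, a transcription factor of the SCL family, had 1548 counts over the TEV libraries and 3 over the reserpine libraries, 258-fold lower after scaling for library size, and counting error alone gives a 95% interval from 88.0 to 1251. The call of Gper1 did not hold with limma-voom (adjusted p = 0.0598).

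For 5 of the 20, Gper1 among them, the call did not hold in each setting. Gper1 had 123 and 34.3 CPM with TEV and 0.134 and 0.115 CPM with TEV plus reserpine, so that the TEV libraries differed by more than 3-fold. Slc6a12, a betaine transporter, had 28.6 and 7.93 CPM with TEV and 0.268 and 0 CPM with TEV plus reserpine, and Rarb, a retinoic acid receptor, had 45.8 and 13.4 CPM with TEV and 0.536 and 0 CPM with TEV plus reserpine. Muc19, a gel-forming mucin, had 22.3 and 6.21 CPM with TEV and 0.536 and 0.660 CPM with TEV plus reserpine, and Ddx41, a DEAD-box helicase, had 18.3 and 28.0 CPM with TEV and 1.16 and 1.06 CPM with TEV plus reserpine. TEV replicate 1 held the highest value for Gper1, Slc6a12, Rarb and Muc19, and TEV replicate 2 for Ddx41. The call of Gper1 did not hold with limma-voom (adjusted p = 0.0598). The call of Slc6a12 did not hold with limma-voom (adjusted p = 0.0713). The call of Rarb did not hold with DESeq2 (adjusted p = 0.101), with limma-voom (adjusted p = 0.0956), without TEV replicate 1 (adjusted p = 0.0801) or without reserpine replicate 2 (adjusted p = 0.0760). The call of Muc19 did not hold with limma-voom (adjusted p = 0.0663). The call of Ddx41 did not hold in 5 of the 16 alternatives (adjusted p = 0.0569 to 0.129), among them the fits without TEV replicate 1, without TEV replicate 2, without reserpine replicate 1 and without reserpine replicate 2. Across all 20, 2 were called higher with TEV plus reserpine than with vehicle, 8 lower and 10 neither. The plot of these 40 genes by library shows how far the TEV and reserpine libraries lay apart in each.

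**Figure D2:**
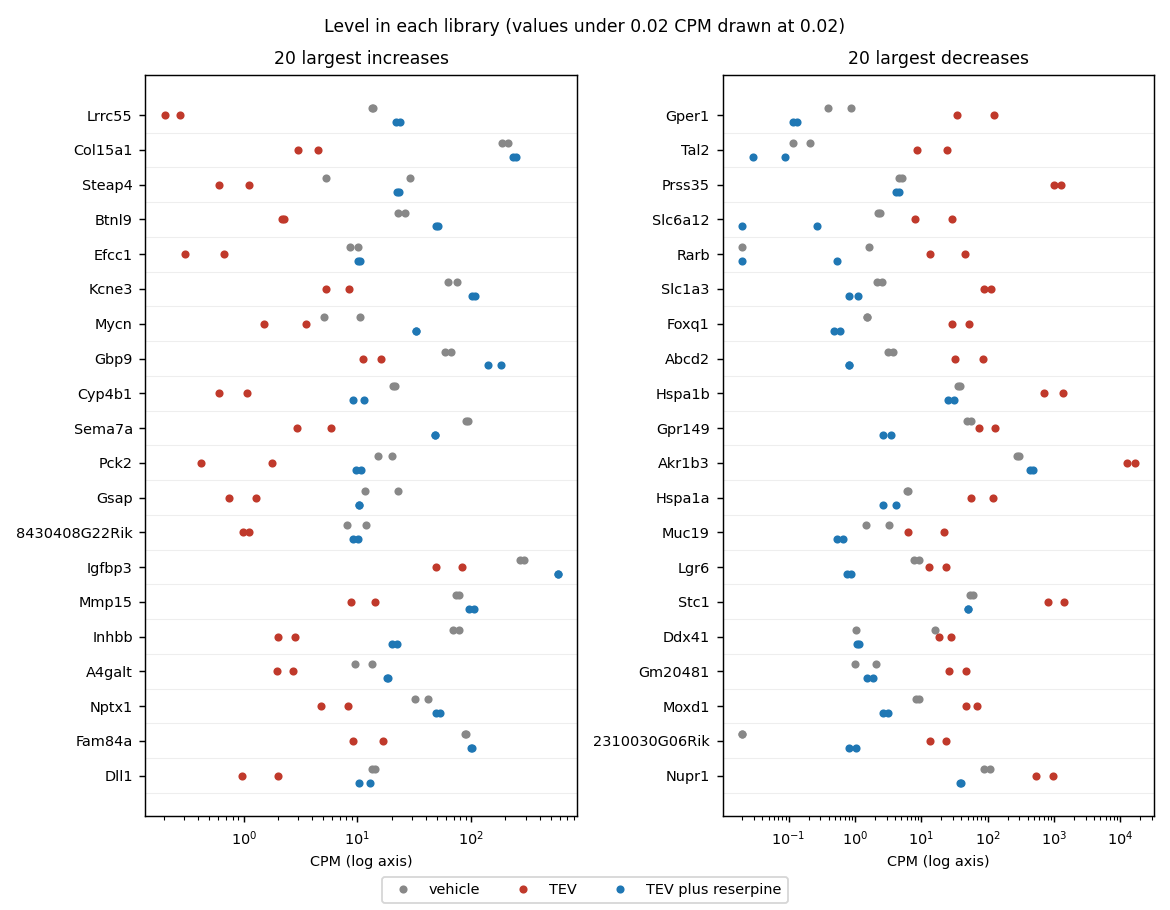
CPM in each library on a log axis (x) for the 20 largest increases (left) and decreases (right), with genes in order of change (y). Points are the 2 libraries of vehicle (grey), TEV (red) and TEV plus reserpine (blue). The red and blue points do not overlap in any of the 40 genes, which were chosen by the size of that difference.

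Among abundant transcripts (a mean of at least 100 CPM), the 10 largest increases after Col15a1 and Igfbp3 included Angptl4, a secreted lipase inhibitor, with 19.8 and 44.4 CPM with TEV and 218 and 196 CPM with TEV plus reserpine (log2 change 2.67, SE 0.37, adjusted p = 0.00344). Plau, which encodes the protease urokinase, had 239 and 393 CPM with TEV and 1467 and 1451 CPM with TEV plus reserpine (log2 change 2.20, SE 0.21, adjusted p = 0.00115). Jag1 and Kdr are described below. Sepp1, the selenium carrier selenoprotein P, rose by 2.20 on the log2 scale, Bcl6b, a transcriptional repressor, by 2.17, Slc22a23, a transporter of unknown cargo, by 2.09, and the imprinted gene Mest by 2.07. Abundant decreases besides Prss35, Hspa1b, Akr1b3, Stc1 and Nupr1 included Plat, the tissue plasminogen activator, with 2245 and 1568 CPM with TEV and 153 and 148 CPM with TEV plus reserpine (log2 change -3.66, SE 0.17, adjusted p = 0.000220). Urokinase and tissue plasminogen activator both cut plasminogen, and their transcripts moved in opposite directions. Pmp22, a myelin and junction protein, fell by 3.83 on the log2 scale, Slc45a3, a sugar transporter, by 3.30, Loxl4, a lysyl oxidase, by 3.29, and Kctd12b by 3.08. In all 20 the groups did not overlap, which their selection by size of change makes likely. The limit of 100 CPM, too, can be met through 1 group alone, as for Col15a1 and Prss35.

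Monoamine transporters are the known targets of reserpine, and their transcripts were scarce in these cells. Slc18a1, the vesicular transporter VMAT1, had 1.42 and 1.21 CPM with TEV and 5.36 and 6.86 CPM with TEV plus reserpine (log2 change 2.23, SE 0.23, adjusted p = 0.00148), and 4.67 and 4.63 CPM with vehicle. Slc18a2, the transporter VMAT2 of neurons and platelets, had 3.44 and 3.07 CPM with TEV and 1.83 and 1.89 CPM with TEV plus reserpine (log2 change -0.80, SE 0.23, adjusted p = 0.0369). The former was higher and the latter lower in both reserpine libraries. The call of Slc18a2 did not hold in 13 of the 16 alternatives (adjusted p = 0.0507 to 0.146), among them each of the 6 that leave out 1 library. Of 27 monoamine genes 19 could be tested. Of these 3 were called higher and 2 lower, against 15.7% and 16% of all genes tested. Monoamine genes called were 3 higher and 1 lower without vehicle replicate 1 or without vehicle replicate 2, 1 and 1 without TEV replicate 1, 2 and 1 without reserpine replicate 1, and 1 and 0 without reserpine replicate 2. The 19 genes, of transport, synthesis and breakdown and of the receptors, had a median log2 change of -0.09. Maoa, monoamine oxidase A, had 32.5 and 35.9 CPM with TEV and 48.0 and 53.6 CPM with TEV plus reserpine (log2 change 0.57, SE 0.11, adjusted p = 0.00998). The call of Maoa did not hold without TEV replicate 1 (adjusted p = 0.0573) or without reserpine replicate 2 (adjusted p = 0.0552).

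Genes of the Notch pathway rose over TEV alone, with 15 of 17 called higher and 1 lower, with a median log2 change of 1.23. Against vehicle their median was -1.19 with TEV and -0.13 with TEV plus reserpine, in comparisons that share libraries with this one. Over all genes tested, 15.7% were called higher. Notch is a receptor that, on contact with a ligand of a neighbouring cell, releases its inner part to the nucleus to switch on targets such as the Hey genes. All 4 listed ligands rose. Dll4, the main ligand of tip cells, had 12.3 and 16.3 CPM with TEV and 85.9 and 74.7 CPM with TEV plus reserpine (log2 change 2.48, SE 0.15, adjusted p = 0.000342), and 90.0 and 85.3 CPM with vehicle. Jag1, a ligand that competes with Dll4, had 64.8 and 93.3 CPM with TEV and 435 and 461 CPM with TEV plus reserpine (log2 change 2.50, SE 0.17, adjusted p = 0.000486), and 182 and 204 CPM with vehicle. Dll1 had 0.972 and 1.99 CPM with TEV and 10.3 and 12.9 CPM with TEV plus reserpine (log2 change 2.92, SE 0.32, adjusted p = 0.00168), and Jag2 rose by 0.93 on the log2 scale. The reserpine libraries exceeded the TEV libraries several-fold for Dll1, Dll4 and Jag1, and for Jag1 they exceeded the vehicle libraries too. All 4 receptors were called higher. Notch3 had 3.28 and 6.0 CPM with TEV and 21.6 and 20.6 CPM with TEV plus reserpine (log2 change 2.16, SE 0.26, adjusted p = 0.00229), Notch1 rose by 0.75 and Notch2 by 0.68 on the log2 scale, and Notch4, the endothelial receptor, had 217 and 245 CPM with TEV and 359 and 318 CPM with TEV plus reserpine (log2 change 0.55, SE 0.11, adjusted p = 0.0118). The call of Notch4 did not hold without TEV replicate 1 (adjusted p = 0.0648) or without reserpine replicate 1 (adjusted p = 0.0623).

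Of the Notch modifiers, the sugar transferases that tune the response to each ligand, Mfng rose by 1.16 on the log2 scale and Rfng fell by 0.73. Lfng had 1.47 and 2.81 CPM with TEV and 6.52 and 5.66 CPM with TEV plus reserpine (log2 change 1.48, SE 0.31, adjusted p = 0.0138). The call of Lfng did not hold without reserpine replicate 1 (adjusted p = 0.0651). Of 6 targets 5 were called higher. Nrarp, a feedback inhibitor of the pathway, had 6.86 and 9.60 CPM with TEV and 46.4 and 44.1 CPM with TEV plus reserpine (log2 change 2.45, SE 0.19, adjusted p = 0.000682), and 12.3 and 9.68 CPM with vehicle, so that both other groups lay below the reserpine libraries. Hey1, a repressor, rose by 1.58, and Efnb2, the arterial ephrin, by 1.23. Hes1 had 18.2 and 20.4 CPM with TEV and 30.1 and 26.3 CPM with TEV plus reserpine and Hey2 had 0.444 and 0.407 CPM with TEV and 0.938 and 1.18 CPM with TEV plus reserpine. The call of Hes1 did not hold without TEV replicate 1 (adjusted p = 0.105) or without reserpine replicate 1 (adjusted p = 0.0962). The call of Hey2 did not hold in 12 of the 16 alternatives (adjusted p = 0.0524 to 0.159), among them each of the 6 that leave out 1 library. Heyl had at most 3 counts in the reserpine group, and no change is given. Of the 15 members called higher, 11 held their call in every alternative, as did Rfng.

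VEGF genes moved in both directions. Of 11, 4 were called higher and 3 lower, against 15.7% and 16% of all genes tested, with a median log2 change of 0.29. Kdr, which encodes the main signalling receptor VEGFR2, had 65.3 and 105 CPM with TEV and 463 and 495 CPM with TEV plus reserpine (log2 change 2.48, SE 0.21, adjusted p = 0.000842), and 343 and 306 CPM with vehicle. Both reserpine libraries lay above both TEV and both vehicle libraries. Against vehicle, however, Kdr was not called with TEV plus reserpine (log2 change 0.56, edgeR adjusted p = 0.0690). Nrp2, a co-receptor, had 297 and 292 CPM with TEV and 442 and 471 CPM with TEV plus reserpine (log2 change 0.63, SE 0.072, adjusted p = 0.00193). Ptprb, the phosphatase VE-PTP that restrains VEGFR2 and the Tie2 receptor, had 970.4 and 822 CPM with TEV and 273 and 291 CPM with TEV plus reserpine (log2 change -1.67, SE 0.11, adjusted p = 0.000461), and 243 and 214 CPM with vehicle, so it fell from a level well above vehicle to near it. Among the ligands, Vegfa fell from 16.2 and 13.4 CPM with TEV to 8.80 and 7.55 CPM with reserpine (log2 change -0.86, SE 0.14, adjusted p = 0.00569), far below the 151 and 161 CPM with vehicle. Flt4, the receptor of VEGF-C, had 578 and 632 CPM with TEV and 800.4 and 778 CPM with TEV plus reserpine. The call of Flt4 did not hold without TEV replicate 1 (adjusted p = 0.0557) or without reserpine replicate 1 (adjusted p = 0.0543). Vegfc (0.86) and the placental growth factor gene Pgf (-0.52) were called too. The call of Vegfc did not hold in 7 of the 16 alternatives (adjusted p = 0.0627 to 0.170), among them the fits without TEV replicate 1, without TEV replicate 2, without reserpine replicate 1 and without reserpine replicate 2. The call of Pgf did not hold without TEV replicate 1 (adjusted p = 0.111) or without reserpine replicate 2 (adjusted p = 0.110). Flt1, a decoy for VEGF, had a log2 change of 0.23 (adjusted p = 0.185) and the co-receptor Nrp1 one of 0.29 (adjusted p = 0.0945), neither of them called. VEGF genes called were 2 higher and 2 lower without TEV replicate 1, and 2 and 4 without reserpine replicate 1.

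Of 21 tip cell and sprouting genes, 12 were called higher and 3 lower, against 15.7% and 16% of all genes tested. Their median was 0.97. Apln, the apelin peptide of tip cells, had 437 and 759.5 CPM with TEV and 1468 and 1476 CPM with TEV plus reserpine (log2 change 1.30, SE 0.23, adjusted p = 0.00849), and 174 and 188 CPM with vehicle. Its receptor gene Aplnr had 0.139 and 0.0891 CPM with TEV and 2.01 and 2.47 CPM with TEV plus reserpine (log2 change 4.39, SE 0.25, adjusted p = 0.000300), and 143 and 133 CPM with vehicle. Both rose, but the receptor stayed far below its level with vehicle while the ligand exceeded it. Igfbp3, a carrier of insulin-like growth factors, had 49.2 and 82.2 CPM with TEV and 574 and 574 CPM with TEV plus reserpine (log2 change 3.12, SE 0.23, adjusted p = 0.000578), and 266 and 292 CPM with vehicle. Cxcl12, a chemokine of vessel guidance, had 52.9 and 74.4 CPM with TEV and 209 and 212 CPM with TEV plus reserpine (log2 change 1.72, SE 0.16, adjusted p = 0.000970). Plxnd1, the receptor of semaphorin 3E, rose by 1.74 on the log2 scale, Unc5b, a netrin receptor, by 1.14, and Tek, which encodes Tie2, by 1.00. Angpt2, the Tie2 ligand that loosens vessels, fell by 0.88, and Cd34, a sialomucin of tip cells, by 1.54, from 2341 and 2018 CPM with TEV to 745 and 757 CPM. Esm1, endocan, had 502 and 581 CPM with TEV and 434 and 446 CPM with TEV plus reserpine (log2 change -0.30, SE 0.088, adjusted p = 0.0422). The call of Esm1 did not hold in 9 of the 16 alternatives (adjusted p = 0.0648 to 0.169), among them the fits without vehicle replicate 1, without vehicle replicate 2, without TEV replicate 2, without reserpine replicate 1 and without reserpine replicate 2. Of the called members 9 higher and 2 lower held in every alternative.

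**Figure D3:**
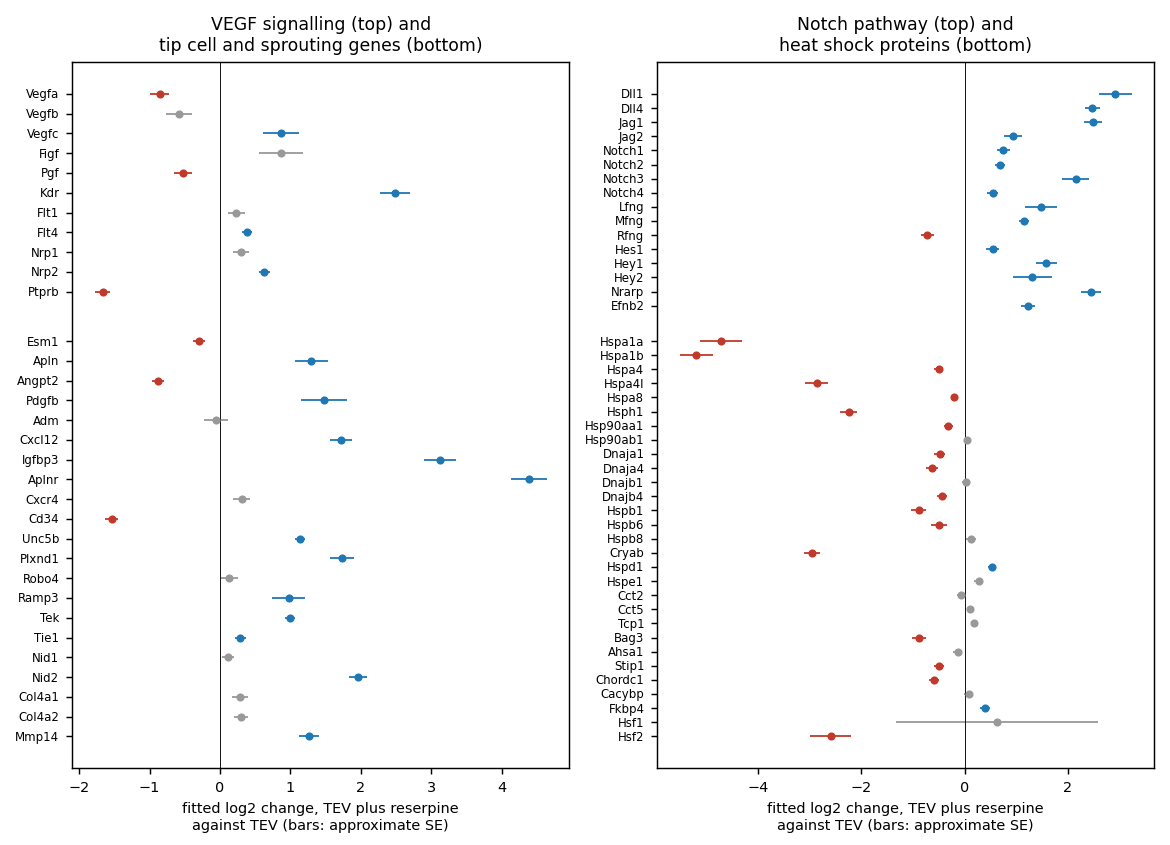
Fitted log2 change with reserpine (x) with its approximate SE (bar) for members of 4 gene lists (y), in blue where called higher, red where called lower and grey where not called. Heyl and Hspa2, with at most 3 counts in a group, are left out. Dll1, Kdr and Aplnr lie farthest to the right in the Notch, VEGF and tip cell lists, and Hspa1b farthest to the left.

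Endothelial identity genes were present in every library, as the label of the cells states, at 1 CPM or more in all 6 libraries for all but Gpihbp1. Of 26, 13 were called higher and 5 lower, against 15.7% and 16% of all genes tested, with a median of 0.34. Of the 12 surface genes 8 were called higher. Cldn5, the tight junction claudin of endothelium, had 20.2 and 37.3 CPM with TEV and 182 and 148 CPM with TEV plus reserpine (log2 change 2.51, SE 0.27, adjusted p = 0.00159), and 221 and 220.0 CPM with vehicle. Gpihbp1, which carries lipoprotein lipase across capillaries, rose by 2.64 on the log2 scale, Clec14a, a C-type lectin of vessels, by 2.33, and Cd93, a matrix receptor, by 1.04. Mmrn1, a platelet and endothelial matrix protein, rose by 1.49, and Icam2 by 0.79. Eng, a co-receptor of BMP9, fell from 1936 and 1882 to 1206 and 1038 CPM (log2 change -0.77, SE 0.087, adjusted p = 0.00188), and the sialomucin gene Emcn from 2680.1 and 2484 to 1852 and 1925 CPM (log2 change -0.45, SE 0.069, adjusted p = 0.00520). For both, the reserpine libraries stayed above the vehicle libraries. Of 9 transcription factors 3 were called higher, among them Fli1 (0.84) and Sox7 (1.25), and 3 lower, among them Gata2 (-0.82) and Klf4 (-0.74). Pecam1 (-0.17, adjusted p = 0.0876), Nos3 (0.15, adjusted p = 0.295) and Vwf (0.36, adjusted p = 0.128) were not called. Of 14 tested markers of lung capillaries 7 were called higher and 4 lower. They hold Kdr, Apln, Aplnr and Ptprb, given above, Ednrb, the endothelin B receptor, which fell by 1.52, and Plvap, the diaphragm protein of fenestrae, which fell by 0.67.

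Basement membrane and matrix genes were called higher for 16 of 34 and lower for 4, against 15.7% and 16% of all genes tested. Their median was 0.39. Besides Col15a1, Col18a1, the precursor of endostatin, had 883 and 1058 CPM with TEV and 2272 and 2166 CPM with TEV plus reserpine (log2 change 1.19, SE 0.10, adjusted p = 0.000691), and Nid2, a nidogen that links laminin to collagen IV, had 52.9 and 69.7 CPM with TEV and 236 and 242 CPM with TEV plus reserpine (log2 change 1.96, SE 0.13, adjusted p = 0.000474). Both were higher in each reserpine library than in each TEV library. Lama4, the endothelial laminin chain, rose by 0.83 on the log2 scale, Sparc by 0.51, the angiogenesis inhibitor gene Thbs1 by 0.91, Mmp14, a membrane-type collagenase, by 1.26, and the gelatinase gene Mmp2 by 0.91. Col4a5, a collagen IV chain, fell by 1.35, whereas the main chain genes Col4a1 (0.29, adjusted p = 0.0976) and Col4a2 (0.30, adjusted p = 0.0580) were not called. Fn1, fibronectin, with a log2 change of 0.092 (adjusted p = 0.361) was not called either. The fall of Plat and rise of Plau, given above, belong to this list. Basement membrane and matrix genes called were 12 higher and 2 lower without TEV replicate 1, and 15 and 2 without reserpine replicate 1.

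Heat shock genes were lower with reserpine for 18 of 30 and higher for 2, with a median of -0.46. Over all genes tested, 16% were called lower. Heat shock proteins are chaperones that fold or hold other proteins, and heat shock factors switch on their genes through elements of repeated GAA and TTC triplets. The promoters of 3 members with large decreases are shown because each holds such an element, with GAANNTTC or TTCNNGAA in capitals, both searched on either strand. They are the 250 bases before the start of the RefSeq transcript (GRCm38.p6), each on the minus strand, for Hspa1b at chr17:34959239-34959488, Hspa1a at chr17:34972157-34972406 and Hsph1 at chr5:149636337-149636586.
Hspa1b: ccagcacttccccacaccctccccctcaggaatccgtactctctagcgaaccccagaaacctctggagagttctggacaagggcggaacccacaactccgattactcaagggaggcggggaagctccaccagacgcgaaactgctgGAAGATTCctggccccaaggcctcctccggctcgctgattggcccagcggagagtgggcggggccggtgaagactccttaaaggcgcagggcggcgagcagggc
Hspa1a: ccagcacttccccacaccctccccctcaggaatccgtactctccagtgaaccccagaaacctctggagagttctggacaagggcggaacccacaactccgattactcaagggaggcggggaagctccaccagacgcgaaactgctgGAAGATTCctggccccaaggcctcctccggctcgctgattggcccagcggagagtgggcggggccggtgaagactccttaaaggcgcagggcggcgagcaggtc
Hsph1: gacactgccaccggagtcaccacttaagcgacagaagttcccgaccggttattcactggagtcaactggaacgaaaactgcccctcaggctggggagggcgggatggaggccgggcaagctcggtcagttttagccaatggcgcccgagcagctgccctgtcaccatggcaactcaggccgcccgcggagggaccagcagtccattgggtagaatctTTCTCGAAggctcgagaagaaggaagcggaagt
The element begins 104 bases before the start in Hspa1b and Hspa1a and 33 bases before it in Hsph1, which has 2 listed starts, of which the upstream one is shown. The Hspa1b and Hspa1a stretches differ at 3 of 250 bases. These genes are near-identical copies, reads may be split between them by the counting, and the value of each is uncertain. Of the 25 members of the list with a promoter in the table, 13 (52%) held the motif before at least 1 listed start, against 12.2% of the 10776 tested genes with a promoter and 14.5% of all 27025 genes of the table. Of the 15 called lower with a promoter, 8 (53.3%) held it, as did 2 of the 2 called higher (100%) and 3 of the 8 that were not called (37.5%). A match of these letters is not evidence that a factor binds there.

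All 7 genes listed here for the HSP70 and HSP110 families were called lower, and other members of these families are not in this list. Hspa1b, the stress-inducible HSP70, had 1353 and 716 CPM with TEV and 30.8 and 25.6 CPM with TEV plus reserpine (log2 change -5.20, SE 0.32, adjusted p = 0.000369), and 37.9 and 35.1 CPM with vehicle. Its copy Hspa1a had 120.1 and 57.0 CPM with TEV and 4.20 and 2.64 CPM with TEV plus reserpine (log2 change -4.72, SE 0.42, adjusted p = 0.000895). Hsph1, HSP110, had 734 and 553 CPM with TEV and 125 and 145 CPM with TEV plus reserpine (log2 change -2.25, SE 0.16, adjusted p = 0.000517), and its relative Hspa4l had 389.6 and 240.1 CPM with TEV and 40.2 and 45.8 CPM with TEV plus reserpine (log2 change -2.87, SE 0.23, adjusted p = 0.000682). In these 4 genes the TEV libraries were high, TEV replicate 1 highest, while the reserpine libraries lay below both vehicle libraries for Hspa1b and Hspa1a and above both for Hspa4l. Against vehicle, neither Hspa1b (log2 change -0.38, edgeR adjusted p = 0.334) nor Hspa1a (-0.89, adjusted p = 0.136) was called with TEV plus reserpine. Hspa2, a testis-enriched HSP70, had 647 counts over the TEV libraries and 2 over the reserpine libraries. It was thus 162-fold lower after the same scaling, and counting error alone gives a 95% interval from 44.5 to 1337. The call of Hspa2 did not hold with limma-voom (adjusted p = 0.0679). Hspa8, the constitutive member, had 4824 and 5072 CPM with TEV and 4237 and 4380.0 CPM with TEV plus reserpine (log2 change -0.20, SE 0.06, adjusted p = 0.0445). The call of Hspa8 did not hold in 12 of the 16 alternatives (adjusted p = 0.0570 to 0.203), among them each of the 6 that leave out 1 library.

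Among the small heat shock proteins Cryab, alpha B-crystallin, had 262 and 206 CPM with TEV and 32.7 and 27.7 CPM with TEV plus reserpine (log2 change -2.96, SE 0.15, adjusted p = 0.000223), and Hspb1, HSP27, fell by 0.89 on the log2 scale. Of the co-chaperones, Bag3, which links chaperones to autophagy, fell by 0.88 and Chordc1 by 0.59. Hsf2, a heat shock factor, had 86.3 and 35.6 CPM with TEV and 10.7 and 9.44 CPM with TEV plus reserpine (log2 change -2.60, SE 0.39, adjusted p = 0.00497). Not every chaperone family moved down. Of the chaperonins, which fold proteins in a closed ring, the mitochondrial Hspd1 rose by 0.53, while the cytosolic ring genes Tcp1 (0.19, adjusted p = 0.0732) and Cct5 (0.12, adjusted p = 0.236) were not called. Hsp90ab1 (0.051, adjusted p = 0.531) was not called either. Of the 18 members called lower, 10 held in every alternative. Heat shock genes called were 1 higher and 11 lower without TEV replicate 1 or without reserpine replicate 1, and 1 and 13 without reserpine replicate 2.

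Osmotic stress genes, most of them targets of the transcription factor NFAT5, fell in 9 of 12 cases, and none was called higher (1 at an unadjusted p under 0.05, 0 by DESeq2 and 0 by limma-voom), with a median of -0.96. Among all genes tested 16% were called lower. NFAT5 raises transporters and enzymes for small organic molecules that keep water in the cell. This list shares Hspa1b and Hspa4l with the one above, and Akr1b3 and Slc6a12 were among the largest decreases. Pnpla6, which releases the osmolyte glycerophosphocholine from membrane lipid, had 88.7 and 90.1 CPM with TEV and 31.5 and 28.6 CPM with TEV plus reserpine (log2 change -1.57, SE 0.16, adjusted p = 0.00147). Sgk1, a salt-responsive kinase, had 924 and 841 CPM with TEV and 377 and 405 CPM with TEV plus reserpine (log2 change -1.17, SE 0.084, adjusted p = 0.000530), and 162 and 153 CPM with vehicle, so that it fell in part toward vehicle. Nfat5 itself had 1027 and 801 CPM with TEV and 459 and 632 CPM with TEV plus reserpine (log2 change -0.74, SE 0.19, adjusted p = 0.0269). The call of Nfat5 did not hold without TEV replicate 1 (adjusted p = 0.134) or without reserpine replicate 1 (adjusted p = 0.112). The call of Slc6a12 did not hold with limma-voom (adjusted p = 0.0713). Smpdl3b (0.37, adjusted p = 0.0721) was not called. Osmotic stress genes called were 1 higher and 8 lower without TEV replicate 2.

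Glycolysis genes fell in 14 of 24 cases, and none was called higher (2 at an unadjusted p under 0.05, 0 by DESeq2 and 0 by limma-voom), with a median of -0.56. Endothelial cells draw most of their energy from this pathway. Slc2a1, the glucose transporter GLUT1, had 369 and 385 CPM with TEV and 198 and 199 CPM with TEV plus reserpine (log2 change -0.93, SE 0.084, adjusted p = 0.000947), and 184 and 207 CPM with vehicle. Of 16 enzymes 11 were called lower, and of all genes tested 16% were. Hk1, the first enzyme, fell by 0.76 on the log2 scale, Pfkl, of the committing step, by 0.63, Aldoa by 0.84, and Pgk1 by 0.62. Further along, Pgam1 fell by 0.90, Eno1 by 0.65, Pkm, pyruvate kinase, by 0.73, and Ldha, which makes lactate, by 0.46. Pkm had 4071 and 3807 CPM with TEV and 2500.5 and 2237 CPM with TEV plus reserpine, and Pgam1 had 969.8 and 824 CPM with TEV and 496 and 464 CPM with TEV plus reserpine. These falls were smaller than 2-fold, but for each of these 9 genes both reserpine libraries lay below both TEV libraries. Gpi1 (-0.18, adjusted p = 0.120) and Pfkp (-0.28, adjusted p = 0.169) were not called. Of the 14 called, 9 held in every alternative, the 9 named here. Glycolysis genes called were 1 higher and 13 lower without TEV replicate 2.

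Hif1a, the transcription factor that raises glycolysis genes when oxygen is low, had 1295 and 999.9 CPM with TEV and 241 and 272 CPM with TEV plus reserpine (log2 change -2.16, SE 0.15, adjusted p = 0.000482), and 350.0 and 407 CPM with vehicle. The related Epas1, HIF-2 alpha, moved the other way, with 57.2 and 73.0 CPM with TEV and 131 and 130.3 CPM with TEV plus reserpine (log2 change 1.00, SE 0.12, adjusted p = 0.00236). Of 27 hypoxia-inducible genes and their regulators 6 were called higher and 6 lower, against 15.7% and 16% of all genes tested. Their median was -0.12. Bnip3, a mitophagy receptor, fell by 1.11 on the log2 scale and Ankrd37 by 1.75. Ndrg1, a stress-response gene, rose by 2.37, the collagen cross-linking enzyme gene Lox by 1.28, and Egln3, an oxygen-sensing hydroxylase, by 1.74. P4ha1 (-0.19, adjusted p = 0.110) and Mxi1 (-0.22, adjusted p = 0.204) were not called. Hypoxia-inducible genes called were 4 higher and 3 lower without TEV replicate 1, and 5 and 3 without reserpine replicate 2. The core letters of the hypoxia response element, ACGTG on either strand, stood before a listed start in 12 of 23 glycolysis genes (52.2%) and in 9 of the 14 called lower (64.3%), and 3 of 9 not called held them (33.3%). They stood there in 24.1% of tested genes. Of the hypoxia-inducible genes with a promoter in the table, 3 of 3 called higher, 5 of 5 called lower and 6 of 13 not called (46.2%) held them. The promoter of Pgk1, a long-known target of this element, is shown because it holds the core 2 times, 150 and 131 bases before the start (GRCm38.p6, plus strand, chrX:106186850-106187099, cores in capitals).
Pgk1: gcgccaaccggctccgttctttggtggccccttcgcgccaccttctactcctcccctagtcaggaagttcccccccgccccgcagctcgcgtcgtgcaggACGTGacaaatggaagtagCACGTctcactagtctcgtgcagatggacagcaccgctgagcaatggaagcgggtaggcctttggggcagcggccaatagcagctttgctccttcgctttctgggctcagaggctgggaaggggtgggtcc

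**Figure D4:**
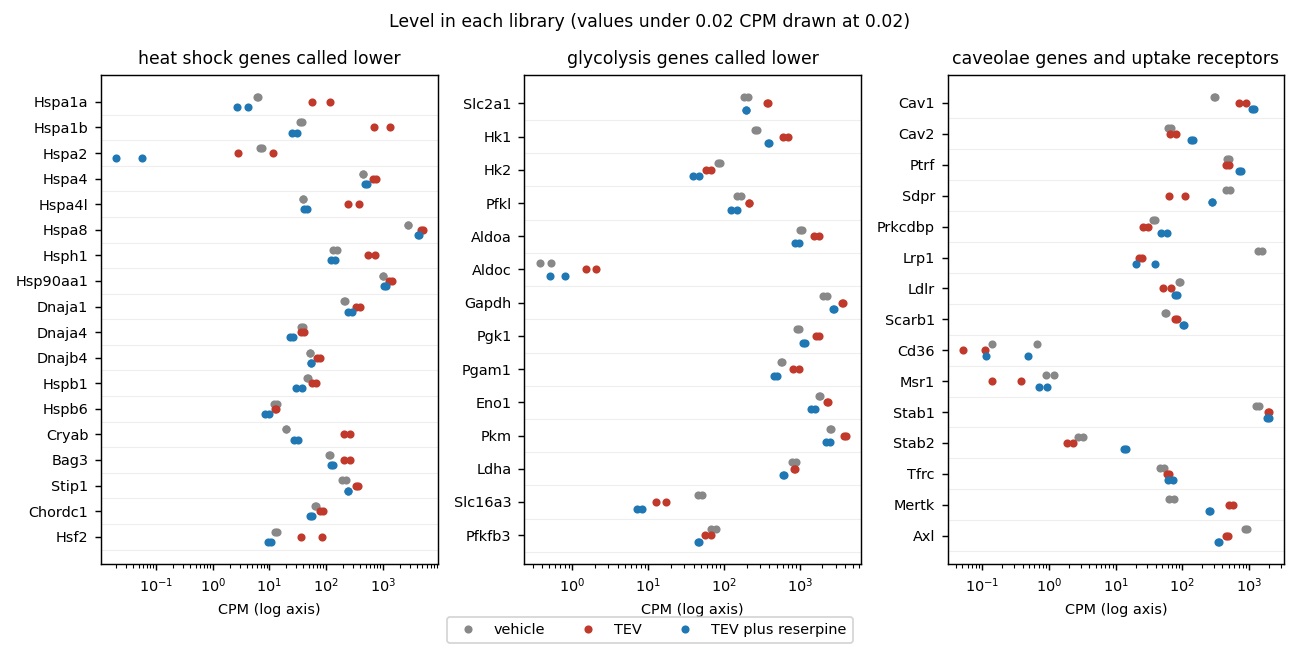
CPM in each library on a log axis (x) for heat shock genes called lower (left), glycolysis genes called lower (middle) and caveolae genes with uptake receptors (right). Points are the 2 libraries of vehicle (grey), TEV (red) and TEV plus reserpine (blue). Hspa1b, Hspa4l and Cryab show red points far to the right of the other groups, and in the 5 caveolae genes at the top right the blue points lie to the right of the red.

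Mitotic genes were higher with reserpine for 20 of 34 and lower for none (0 at an unadjusted p under 0.05, 0 by DESeq2 and 0 by limma-voom), with a median of 0.63. Ccnb1, cyclin B1, had 25.9 and 36.7 CPM with TEV and 70.0 and 69.2 CPM with TEV plus reserpine (log2 change 1.15, SE 0.20, adjusted p = 0.00831), and 18.6 and 13.4 CPM with vehicle. Ccna2 rose by 1.07 on the log2 scale, Cdk1, the kinase of mitotic entry, by 0.64, Cenpf, a kinetochore protein, by 1.15, Kif23, a kinesin of cell division, by 0.86, and Top2a by 0.73. The vehicle libraries were the lowest and the reserpine libraries the highest in each of these 6. The DNA replication list held 41 genes, 13 of them for control of G1 and S phase. Of the 41, 6 were called higher and 1 lower, against 15.7% and 16% of all genes tested. The 13 control genes held 3 of the higher calls and the lower call. The median of the 41 was 0.16, and none of the 12 licensing genes was called (2 higher and 0 lower at an unadjusted p under 0.05). Mcm2 (0.17, adjusted p = 0.198), Mcm6 (0.19, adjusted p = 0.0885) and Pcna (0.19, adjusted p = 0.127) were among those not called. Ccnd2, a cyclin of early cycle, rose by 1.30, Pole, the leading-strand polymerase, by 0.74, and Cdkn1b, the inhibitor p27, fell by 0.58. The difference between the lists was not tested. The E2F site TTTCCCGC, on either strand, stood before a listed start in 3 of 32 genes of this list (9.38%), against 1.86% of tested genes. All 3, which were Cdc6, Mcm7 and the cell cycle inhibitor gene Cdkn2a, were among the 29 not called. Mitotic genes called were 10 higher and 0 lower without TEV replicate 1, and 12 and 0 without reserpine replicate 2. Replication genes called were 11 higher and 1 lower with scaling by library size alone, 10 and 2 with DESeq2, 3 and 1 without TEV replicate 1, 2 and 2 without reserpine replicate 1, and 2 and 1 without reserpine replicate 2.

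Genes of vesicle uptake did not share 1 direction. Of 40 tested, 10 were called higher and 9 lower, against 15.7% and 16% of all genes tested, with a median of 0.05. All 5 listed genes of caveolae, flask-shaped pits of the endothelial surface built from caveolins and cavins, were called higher. Sdpr, cavin 2, had 62.8 and 108 CPM with TEV and 283 and 283 CPM with TEV plus reserpine (log2 change 1.72, SE 0.24, adjusted p = 0.00345), and 519 and 449 CPM with vehicle. Cav2 rose by 0.94 on the log2 scale, Ptrf, cavin 1, by 0.63, and Prkcdbp, cavin 3, by 0.93. Cav1, caveolin 1, had 714 and 895 CPM with TEV and 1183 and 1121 CPM with TEV plus reserpine (log2 change 0.52, SE 0.11, adjusted p = 0.0155). The call of Cav1 did not hold without reserpine replicate 1 (adjusted p = 0.0777) or without reserpine replicate 2 (adjusted p = 0.0531). Of 5 genes listed for macropinocytosis 3 were called lower, among them the kinase gene Pak1, which fell by 1.09. Of 10 genes of coats and scission 2 were called in each direction. Not called were the heavy chain gene Cltc (-0.15, adjusted p = 0.182) and the light chain gene Clta (-0.16, adjusted p = 0.163), and the adaptor gene Dab2 rose by 1.14. Of the scavenger and uptake receptors, Stab2, a hyaluronan scavenger, had 1.83 and 2.32 CPM with TEV and 13.3 and 14.2 CPM with TEV plus reserpine (log2 change 2.72, SE 0.21, adjusted p = 0.000671), and Mertk, a receptor for phosphatidylserine bridges, had 578 and 508 CPM with TEV and 252 and 263 CPM with TEV plus reserpine (log2 change -1.08, SE 0.11, adjusted p = 0.00117). Mertk stayed above the 74.0 and 63.3 CPM with vehicle. Endocytosis and vesicle uptake genes called were 6 higher and 7 lower without reserpine replicate 1, and 7 and 4 without reserpine replicate 2.

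Lysosome and autophagy genes were called lower for 13 of 33 and higher for 3, against 16% and 15.7% of all genes tested. Their median was -0.16. Tfe3, a transcription factor that raises lysosome genes, had 206 and 152 CPM with TEV and 80.6 and 77.9 CPM with TEV plus reserpine (log2 change -1.17, SE 0.15, adjusted p = 0.00264). Ctsa, a protective carboxypeptidase of the lysosome, fell by 0.75 on the log2 scale, the sialidase gene Neu1 by 0.94, Wipi1, an early autophagy protein, by 0.68, and Atp6v1h, a subunit of the proton pump, by 0.77. The hydrolase genes Hexa and Ctsb rose by 0.60 and 0.37. Lysosome and autophagy genes called were 3 higher and 8 lower with the 4 libraries alone, without vehicle replicate 1 or without vehicle replicate 2, 5 and 7 with scaling by library size alone, 2 and 5 without TEV replicate 1, 2 and 7 without reserpine replicate 1, and 2 and 6 without reserpine replicate 2.

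Vasoactive genes were called higher for 5 of 20 and lower for 7, against 15.7% and 16% of all genes tested. Of the 7, 6 fell at least 2-fold. Ptgs2, cyclooxygenase 2, had 3109 and 2132 CPM with TEV and 449 and 594 CPM with TEV plus reserpine (log2 change -2.33, SE 0.25, adjusted p = 0.00162), and 1325 and 1898 CPM with vehicle, so that the reserpine libraries lay below both other groups. Ptgs1, cyclooxygenase 1, had 23.2 and 18.7 CPM with TEV and 6.92 and 6.66 CPM with TEV plus reserpine (log2 change -1.62, SE 0.13, adjusted p = 0.000671), and 316 and 308 CPM with vehicle. F2rl1, the protease-activated receptor 2, had 67.4 and 59.1 CPM with TEV and 17.9 and 17.1 CPM with TEV plus reserpine (log2 change -1.85, SE 0.11, adjusted p = 0.000300). Bdkrb2, the bradykinin B2 receptor, fell by 2.24 on the log2 scale, and Ednrb and Gper1 are given above. The call of Gper1 did not hold with limma-voom (adjusted p = 0.0598). Calcrl, the shared receptor of adrenomedullin and CGRP, fell by 0.98, while Ramp2, the partner that makes it an adrenomedullin receptor, rose by 1.43. Npr3, the clearance receptor of natriuretic peptides, rose by 1.90. Ptgis, prostacyclin synthase, had a log2 change of 0.22 (adjusted p = 0.150). Vasoactive mediators called were 2 higher and 7 lower without TEV replicate 1 or without reserpine replicate 1, and 3 and 7 without reserpine replicate 2.

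Of 38 genes of leukocyte adhesion and inflammation, 10 were called higher and 4 lower, against 15.7% and 16% of all genes tested. Their median was 0.87. Ptx3, a soluble pattern receptor, had 0.139 and 0.344 CPM with TEV and 6.97 and 7.78 CPM with TEV plus reserpine (log2 change 4.77, SE 0.46, adjusted p = 0.00111), and 17.0 and 32.3 CPM with vehicle. Cx3cl1, the membrane-bound chemokine fractalkine, had 13.5 and 18.6 CPM with TEV and 107 and 98.8 CPM with TEV plus reserpine (log2 change 2.67, SE 0.24, adjusted p = 0.000896), and 17.9 and 27.9 CPM with vehicle. Both reserpine libraries lay above the TEV libraries, and for Cx3cl1 above vehicle as well. Il33, an alarmin, rose by 3.17 on the log2 scale and Irf1, an interferon regulatory factor, by 1.95. Alcam, an adhesion molecule, fell by 1.19, and Ptgs2, given above, belongs to this list. The selectin genes Sele (0.75, adjusted p = 0.135) and Selp (0.43, adjusted p = 0.211) and the adhesion gene Icam1 (0.28, adjusted p = 0.519) were not called. In many of these genes the vehicle libraries differed from each other. Csf3, the neutrophil growth factor, had 0.999 and 19.5 CPM with vehicle, 8.41 and 11.9 CPM with TEV and 56.6 and 49.4 CPM with TEV plus reserpine (log2 change 2.37, SE 0.97, adjusted p = 0.105). The fit holds 1 estimate of spread over the 3 groups, so the difference between the vehicle libraries enters this error. Leukocyte adhesion and inflammation genes called were 22 higher and 5 lower with the 4 libraries alone, without vehicle replicate 1 or without vehicle replicate 2, 17 and 4 without filtering on low counts, 5 and 2 without TEV replicate 1, 6 and 2 without reserpine replicate 1, and 7 and 2 without reserpine replicate 2.

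Type I interferon response genes were called higher for 10 of 29 tested and lower for none (0 at an unadjusted p under 0.05, 0 by DESeq2 and 0 by limma-voom), with a median of 0.66. The median was 1.19 without TEV replicate 1 and 0.41 without TEV replicate 2. None of the 10 calls held in every alternative. Of all genes tested 15.7% were called higher and 16% lower. Type I interferon response genes called were 3 higher and 0 lower without TEV replicate 2, 6 and 0 without reserpine replicate 1, and 0 and 0 without reserpine replicate 2. Without reserpine replicate 2 there were 7 higher and 1 lower at an unadjusted p under 0.05. Rsad2, viperin, had 4.66 and 2.33 CPM with TEV and 6.92 and 26.7 CPM with TEV plus reserpine (log2 change 2.30, SE 0.67, adjusted p = 0.0406), and Cmpk2, its genomic neighbour, had 5.91 and 3.25 CPM with TEV and 7.68 and 20.4 CPM with TEV plus reserpine (log2 change 1.64, SE 0.48, adjusted p = 0.0410). Reserpine replicate 2 was the high library for both. The call of Rsad2 did not hold with a replicate block over 6 libraries (adjusted p = 0.0764), without TEV replicate 1 (adjusted p = 0.0865), without TEV replicate 2 (adjusted p = 0.151) or without reserpine replicate 2 (adjusted p = 0.235). The call of Cmpk2 did not hold in 7 of the 16 alternatives (adjusted p = 0.0553 to 0.220), among them the fits without vehicle replicate 1, without vehicle replicate 2, without TEV replicate 1, without TEV replicate 2 and without reserpine replicate 2. Stat2 (0.52, adjusted p = 0.137) was not called. Of 11 tested genes of interferon receptors and their kinases 5 were called higher and none lower (0 at an unadjusted p under 0.05, 0 by DESeq2 and 0 by limma-voom). Interferon receptor and signalling genes called were 3 higher and 0 lower without reserpine replicate 1. Ifnar1, a chain of the type I interferon receptor, had 60.8 and 68.6 CPM with TEV and 131 and 138 CPM with TEV plus reserpine (log2 change 1.06, SE 0.09, adjusted p = 0.000812), and 139 and 145 CPM with vehicle. Ifngr1, a chain of the interferon gamma receptor, rose by 0.84 on the log2 scale, and the kinase gene Jak1 by 0.40. Of 14 antigen presentation genes 5 were called higher and 1 lower. Antigen presentation genes called were 1 higher and 1 lower without TEV replicate 1 or without TEV replicate 2, 2 and 0 without reserpine replicate 1, and 1 and 0 without reserpine replicate 2. Tap1, a peptide transporter, had 13.3 and 15.4 CPM with TEV and 45.8 and 50.2 CPM with TEV plus reserpine (log2 change 1.74, SE 0.12, adjusted p = 0.000461), while the class I genes H2-K1 (0.18, adjusted p = 0.491) and H2-D1 (0.052, adjusted p = 0.738) were not called. Of 10 tested checkpoint and adenosine genes 4 were called higher, among them the galectin gene Lgals9 (0.76) and the ATP-cleaving enzyme gene Entpd1 (0.51), and 2 lower, among them Havcr2, TIM-3, which fell by 2.47. Immune checkpoint and adenosine genes called were 4 higher and 1 lower without TEV replicate 2, without reserpine replicate 2, without vehicle replicate 1 or without vehicle replicate 2, and 3 and 1 without TEV replicate 1 or without reserpine replicate 1.

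Growth factor signalling genes changed in both directions, as did all genes tested (15.7% called higher and 16% lower). Tgfbr2, the TGF-beta receptor kinase, had 284 and 371 CPM with TEV and 945 and 947 CPM with TEV plus reserpine (log2 change 1.53, SE 0.13, adjusted p = 0.000757), and 568 and 538 CPM with vehicle. Of 21 TGF-beta and BMP genes 9 were called higher and 2 lower, with Bmp6 (1.41), Tgfbr3 (0.87) and the decoy receptor gene Bambi (0.75) among the former. Skil, a SMAD repressor, had 296 and 168 CPM with TEV and 59.9 and 60.8 CPM with TEV plus reserpine (log2 change -1.94, SE 0.24, adjusted p = 0.00261). TGF-beta and BMP response genes called were 8 higher and 1 lower without vehicle replicate 1 or without vehicle replicate 2, 5 and 2 without TEV replicate 1, 9 and 1 without TEV replicate 2, 6 and 1 without reserpine replicate 1, and 5 and 1 without reserpine replicate 2. Of 27 tested immediate early genes, which answer growth factors within minutes to hours, 8 were called higher and 5 lower. Egr1 had 46.2 and 44.2 CPM with TEV and 95.4 and 92.3 CPM with TEV plus reserpine (log2 change 1.05, SE 0.078, adjusted p = 0.000594), and Dusp6 and Dusp5, phosphatases that end ERK signalling, rose by 1.65 and 1.74 on the log2 scale. Both reserpine libraries were above both TEV libraries for these 3 genes. Myc rose by 1.19 and Klf6 by 1.29. Ier3 had 640.1 and 559.8 CPM with TEV and 161 and 145 CPM with TEV plus reserpine (log2 change -1.97, SE 0.31, adjusted p = 0.00558), and Fosl2, an AP-1 subunit, fell by 0.80. Immediate early genes called were 6 higher and 3 lower without TEV replicate 1, 6 and 2 without reserpine replicate 1, and 7 and 2 without reserpine replicate 2. Of 17 YAP and SRF targets 3 were called higher, among them the matricellular gene Ctgf (0.52), and 5 lower, among them Lats2 (-0.58). YAP and SRF targets called were 1 higher and 2 lower without TEV replicate 1 or without reserpine replicate 1, 5 and 3 without TEV replicate 2, and 1 and 3 without reserpine replicate 2.

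Amino acid response genes, NRF2 targets and unfolded protein response genes were called in both directions, as were all genes tested (15.7% higher and 16% lower). Of 28 amino acid response genes tested 9 were called higher and 7 lower, with a median of 0.19. Amino acid response genes called were 6 higher and 3 lower without TEV replicate 1, 6 and 4 without reserpine replicate 1, and 7 and 3 without reserpine replicate 2. Vldlr, a lipoprotein receptor, had 13.9 and 20.6 CPM with TEV and 47.0 and 55.3 CPM with TEV plus reserpine (log2 change 1.56, SE 0.20, adjusted p = 0.00257), Trib3, a pseudokinase, rose by 1.09 on the log2 scale, and the amino acid transporter genes Slc7a11 and Slc7a5 by 1.03 and 0.89. Chac1, which breaks down glutathione, fell by 1.70, and Psat1, an enzyme of serine synthesis, by 0.64. Of 23 NRF2 targets 6 were called higher and 4 lower. NRF2 targets called were 3 higher and 3 lower without TEV replicate 1 or without reserpine replicate 1. Me1, malic enzyme, had 1196 and 882 CPM with TEV and 177 and 187 CPM with TEV plus reserpine (log2 change -2.51, SE 0.15, adjusted p = 0.000300), and 121 and 121 CPM with vehicle, so it fell from far above vehicle to near it. Nqo1, a quinone reductase, had 260.4 and 266 CPM with TEV and 132 and 130.4 CPM with TEV plus reserpine (log2 change -1.0, SE 0.07, adjusted p = 0.000486), while Hmox1, haem oxygenase 1, had 491 and 614 CPM with TEV and 1227 and 1133 CPM with TEV plus reserpine (log2 change 1.09, SE 0.12, adjusted p = 0.00186). These well-known NRF2 targets moved in opposite directions. Of 22 unfolded protein response genes 5 were called higher and 3 lower. Eif2ak3, the sensor kinase PERK, had 261 and 215 CPM with TEV and 77.7 and 89.7 CPM with TEV plus reserpine (log2 change -1.51, SE 0.14, adjusted p = 0.000969). Unfolded protein response genes called were 5 higher and 6 lower with DESeq2, 3 and 2 without vehicle replicate 1 or without vehicle replicate 2, 2 and 2 without TEV replicate 1, 3 and 3 without TEV replicate 2, 2 and 1 without reserpine replicate 1, and 3 and 1 without reserpine replicate 2. Of 17 tested drug and xenobiotic genes 8 were called higher and none lower (1 at an unadjusted p under 0.05, 0 by DESeq2 and 0 by limma-voom), with a median of 0.66. Abcb1a, the drug pump P-glycoprotein, had 9.94 and 13.1 CPM with TEV and 31.1 and 28.7 CPM with TEV plus reserpine (log2 change 1.37, SE 0.16, adjusted p = 0.00203), and Ahr, the aryl hydrocarbon receptor, had 11.5 and 17.2 CPM with TEV and 28.8 and 32.9 CPM with TEV plus reserpine (log2 change 1.10, SE 0.19, adjusted p = 0.00755). Drug and xenobiotic response genes called were 5 higher and 0 lower without TEV replicate 1, and 4 and 0 without reserpine replicate 2.

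**Figure D5:**
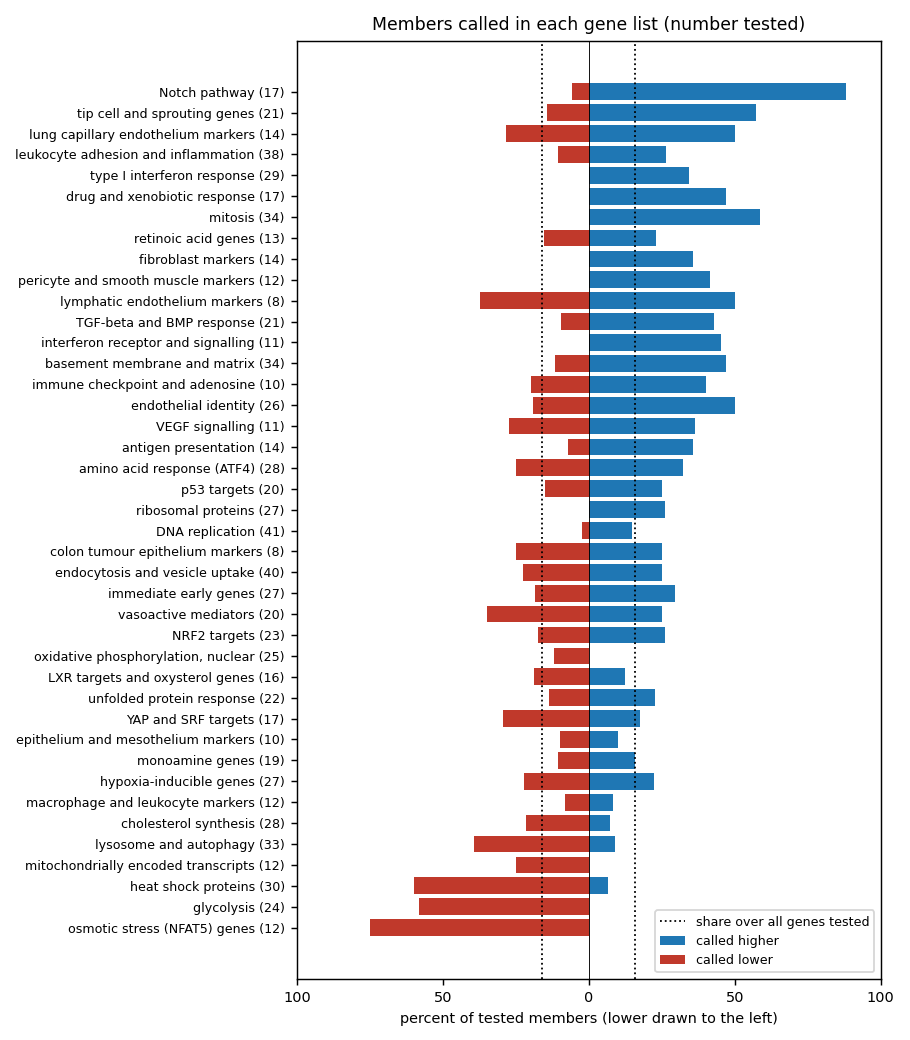
Percent of the tested members of each gene list called higher (blue, to the right) or lower (red, to the left), with the number tested in parentheses and lists in order of median log2 change (y). Dotted lines mark the shares over all genes tested, 15.7% higher and 16% lower. The lists were chosen with earlier results of these data known. The Notch list lies at the top with 15 of 17 members higher, and the NFAT5 list at the bottom with 9 of 12 lower.

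Markers of other cell types were checked in the same libraries, where 15.7% of all genes tested were called higher and 16% lower. Of 14 tested fibroblast markers 5 were called higher with reserpine and none lower (1 at an unadjusted p under 0.05, 1 by DESeq2 and 0 by limma-voom), and their summed level was 342 and 398 CPM with TEV, 507 and 456 CPM with TEV plus reserpine and 3388 and 2949 CPM with vehicle. The median log2 change of the 14 was 0.49, and 1 of the 5 calls held in every alternative. Among the members not called were 2 collagen genes. Col1a1 had 11.7 and 17.3 CPM with TEV and 10.4 and 10.7 CPM with TEV plus reserpine (adjusted p = 0.0980). Col1a2 had 1.30 and 2.16 CPM with TEV and 2.68 and 2.58 CPM with TEV plus reserpine (adjusted p = 0.146). Of 12 tested pericyte and smooth muscle markers 5 were called higher and none lower (0 at an unadjusted p under 0.05, 0 by DESeq2 and 0 by limma-voom), among them Abcc9, a potassium channel subunit (1.14 and 1.91 CPM with TEV and 10.5 and 11.7 CPM with TEV plus reserpine), and the Notch3 gene given above. Their summed level was 1225 and 1401 CPM with TEV, 1542 and 1439.9 CPM with reserpine and 2525 and 2506 CPM with vehicle, and Cspg4 had no counts in the 4 libraries. Fibroblast markers called were 3 higher and 1 lower without TEV replicate 1, 2 and 0 without reserpine replicate 1, and 3 and 0 without reserpine replicate 2. Pericyte and smooth muscle markers called were 3 higher and 0 lower without TEV replicate 1, without reserpine replicate 1, without reserpine replicate 2, without vehicle replicate 1 or without vehicle replicate 2. Of 12 tested macrophage and leukocyte markers 1 was called in each direction, and Ptprc, the pan-leukocyte gene, had 0.333 and 0.344 CPM with TEV and 0.223 and 0.0287 CPM with TEV plus reserpine. Macrophage and leukocyte markers called were 0 higher and 0 lower without TEV replicate 1, without TEV replicate 2, without reserpine replicate 1 or without reserpine replicate 2. Of 8 markers of lymphatic endothelium 4 were called higher and 3 lower. Lyve1 had 173 and 204 CPM with TEV and 270.1 and 276 CPM with TEV plus reserpine (log2 change 0.54, SE 0.095, adjusted p = 0.00828), while Pdpn, podoplanin, had 189.8 and 149 CPM with TEV and 48.1 and 49.6 CPM with TEV plus reserpine (log2 change -1.79, SE 0.14, adjusted p = 0.000691) and Reln fell by 1.32 on the log2 scale. Of 10 tested markers of epithelium and mesothelium 1 was called higher and 1 lower, the latter Krt19, a keratin, which fell by 1.22. Epithelium and mesothelium markers called were 0 higher and 1 lower without TEV replicate 1, without TEV replicate 2, without reserpine replicate 1 or without reserpine replicate 2. In bulk libraries fewer cells of a type and less RNA per cell cannot be told apart, and the part of such cells in the results above was not tested.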

How the data were processed

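RNA from 6 samples of mouse lung endothelial cells was sequenced (polyA-selected, single-end, per the labels' protocols). The authors deposited estimated counts per gene symbol, made with kallisto 0.45.0, per the submitters' processing notes, which also name R 4.0.0, edgeR, limma and the build GRCh38. Since the deposited symbols belong to mouse, coordinates were not taken from these files. Of the deposited estimated counts above 0, 99.9% were not whole (tolerance 1e-06), and they were rounded. A second deposited table holds the same values for 13098 genes. Whether transcripts of near-identical genes were told apart is limited by the assignment of reads to transcripts.

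Of 30055 symbols, 15035 passed filterByExpr (minimum count 10). Changes were tested with edgeR 4.0.16 in R 4.3.3 (quasi-likelihood, TMM scaling, all 6 libraries, 3 residual degrees of freedom, Benjamini-Hochberg adjusted p under 0.05). The approximate SE is the log2 change divided by the square root of F. CPM used TMM-scaled library sizes. On simulated counts for this comparison with 15035 genes, 35.8% of genes changed 1.5-fold were called, 94% of those changed 2-fold and 97% of those changed 4-fold, with 10 false calls. The simulation gave every gene the same dispersion of 0.01 and changed only 67, 67 and 66 genes of these sizes. In the data the spread differs between groups and far more genes are called, so these rates may not carry over. The genes named are the 20 largest called changes in each direction with a mean of at least 5 CPM, the 10 largest with at least 100 CPM, and members of 41 gene lists. The members and lists were chosen with earlier results of these data known. Members were matched by symbol or older symbol (Ptrf, Sdpr and Ctgf, for example, are now Cavin1, Cavin2 and Ccn2). Promoters came from RefSeq (GRCm38.p6, 250 bases before the start, where a gene with several listed starts held a motif if any of them did). The 16 alternatives were the 4 libraries alone, other scalings, DESeq2 1.42.0, limma-voom (limma 3.58.1), other filters, thinning to the smallest library, a replicate block with 6 or 4 libraries, and leaving out each library.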

Additional observations from a re-analysis of the deposited data

How the results depend on the processing

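With 1 library left out, between 1049 and 2177 genes were called higher and between 1075 and 2138 lower, and at least 2-fold changes were called for between 502 and 1016 higher and between 435 and 820 lower genes. The lowest counts were those without TEV replicate 1, which kept 2079 of the 4757 calls. Leaving out a library leaves its group with 1 sample, assumed to vary like the other groups. Of the other alternatives none moved these 4 counts by more than 1.5 times, and no called gene named here changed direction under any alternative. With library size as the only scaling, the median log2 change over all genes was 0.08, with 2857 higher and 1954 lower calls, so that 59.4% of calls were higher. DESeq2 gave 2694 and 2521 and limma-voom 2346 and 2315. Whether same-numbered libraries are paired was not settled. Deviations from the group means of libraries with the same replicate number in the titles had correlations across genes of 0.019, 0.024 and -0.042. By column number the vehicle libraries would match the other groups differently, and that was not tested. With a replicate block the counts were 1910 higher and 1930 lower with 6 libraries, and 1830 and 1829 with 4. With the block on 6 libraries, type I interferon response genes called were 5 higher and 0 lower, lysosome and autophagy genes 3 and 7, cholesterol synthesis genes 0 and 5, unfolded protein response genes 3 and 3, antigen presentation genes 3 and 1, monoamine genes 3 and 1, checkpoint and adenosine genes 4 and 1, pericyte and smooth muscle markers 3 and 0, and macrophage and leukocyte markers 0 and 0, and the other lists moved by at most 1.5 times. Over the 16 alternatives the list median ranged from -0.23 to 0.14 for monoamine genes, from -0.14 to -0.043 for hypoxia-inducible genes, from 0.087 to 0.26 for replication genes, from 0.019 to 0.13 for uptake genes, from -0.24 to -0.08 for lysosome and autophagy genes, from 0.41 to 1.19 for type I interferon response genes, from 0.047 to 0.30 for amino acid response genes, from -0.23 to -0.036 for cholesterol synthesis genes and from 0.07 to 0.25 for ribosomal protein genes, and the other medians given for lists moved by at most 1.5 times. The smallest library held 22270657 counts, where 3 counts are 0.135 CPM, and differences near that level were not detectable. With simulated 1.5-fold changes most were missed, so a gene that was not called may still differ.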

Other observations

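Sterol genes are of interest beside an enzyme that makes an oxysterol. The shares over all genes tested were 15.7% called higher and 16% lower. Of 28 tested genes of cholesterol synthesis 2 were called higher and 6 lower, none by 2-fold, with a median log2 change of -0.13, and none of these calls held in every alternative. Cholesterol synthesis genes called were 0 higher and 5 lower without vehicle replicate 1 or without vehicle replicate 2, 0 and 1 without TEV replicate 1, 3 and 3 without TEV replicate 2, 1 and 2 without reserpine replicate 1, and 0 and 2 without reserpine replicate 2. Of 16 tested targets of the oxysterol receptor LXR and oxysterol genes 2 were called higher and 3 lower. LXR targets and oxysterol genes called were 1 higher and 2 lower without TEV replicate 1 or without reserpine replicate 1. Abca1, a cholesterol exporter, had 44.3 and 67.6 CPM with TEV and 153 and 175 CPM with TEV plus reserpine (log2 change 1.55, SE 0.20, adjusted p = 0.00274, edgeR's quasi-likelihood test), and its relative Abcg1 had 223 and 195 CPM with TEV and 106 and 105 CPM with TEV plus reserpine (log2 change -0.99, SE 0.089, adjusted p = 0.000938). Scd1, which desaturates fatty acids, had 66.6 and 61.5 CPM with TEV and 36.9 and 41.6 CPM with TEV plus reserpine (log2 change -0.70, SE 0.10, adjusted p = 0.00401). The reserpine libraries lay on 1 side of the TEV libraries in each of these 3 genes.

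Of 27 ribosomal protein genes 7 were called higher and none lower (0 at an unadjusted p under 0.05, 0 by DESeq2 and 0 by limma-voom), with a median of 0.17. Ribosomal protein genes called were 0 higher and 0 lower without TEV replicate 1, 1 and 0 without reserpine replicate 1, and 3 and 0 without reserpine replicate 2. Of 12 tested mitochondrially encoded transcripts none was called higher (1 at an unadjusted p under 0.05, 0 by DESeq2 and 0 by limma-voom) and 3 lower, among them mt-Co3 (-1.55) and mt-Nd1 (-0.58). Of 25 tested nuclear genes of oxidative phosphorylation 3 were called lower and none higher (1 at an unadjusted p under 0.05, 1 by DESeq2 and 0 by limma-voom), among them Sdha, a subunit of complex II, with 424 and 394 CPM with TEV and 293 and 298 CPM with TEV plus reserpine (log2 change -0.47, SE 0.073, adjusted p = 0.00564, edgeR). Oxidative phosphorylation, nuclear genes called were 0 higher and 1 lower without TEV replicate 1 or without reserpine replicate 2. Of 20 p53 targets 5 were called higher and 3 lower, against 15.7% and 16% of all genes tested, with a median of 0.18. The p53 targets called were 8 higher and 3 lower with scaling by library size alone, 3 and 3 without vehicle replicate 1 or without vehicle replicate 2, 2 and 0 without TEV replicate 1, and 3 and 1 without reserpine replicate 1 or without reserpine replicate 2. Perp, a junction protein of the p53 programme, had 13.3 and 15.2 CPM with TEV and 24.5 and 25.9 CPM with TEV plus reserpine (log2 change 0.82, SE 0.13, adjusted p = 0.00590, edgeR). Among 13 tested retinoic acid genes 3 were called higher and 2 lower, the largest decrease being that of Rarb given above. The call of Rarb did not hold with DESeq2 (adjusted p = 0.101), with limma-voom (adjusted p = 0.0956), without TEV replicate 1 (adjusted p = 0.0801) or without reserpine replicate 2 (adjusted p = 0.0760). Retinoic acid genes called were 2 higher and 1 lower without vehicle replicate 1 or without vehicle replicate 2, 1 and 0 without TEV replicate 1 or without reserpine replicate 2, 3 and 1 without TEV replicate 2, and 1 and 1 without reserpine replicate 1.

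The vesicles came from a colorectal carcinoma line. Of 13 markers of colon tumour epithelium 8 were tested. With reserpine 2 were called higher and 2 lower, against 15.7% and 16% of all genes tested. Colon tumour epithelium markers called were 1 higher and 0 lower without TEV replicate 1, 0 and 1 without reserpine replicate 1, and 0 and 0 without reserpine replicate 2. Their summed level was 37.0 and 40.6 CPM with TEV, 51.0 and 49.5 CPM with TEV plus reserpine and 22.2 and 22.2 CPM with vehicle.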
